A study of Rattus norvegicus with 15 samples.

Results

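Globins, the chaperone of alpha globin and the enzymes that make haem were followed in 15 mammary tumours of rats raised on 3 levels of dietary zinc. The 9 genes were the beta-type globin genes Hbb, Hbb-b1 and Hbe2, the globin chaperone Ahsp, the enzymes Alas1 and Alas2 of the first step of haem synthesis, and the later enzymes Urod, Cpox and Fech. They were taken as a list of names whose probes were found through the RefSeq accession of each probe. The genes were chosen by their measured levels, since the list was drawn up with the differences between the 3 diets known, so those differences are given as descriptions without a test. All 9 genes were measured, by 10 probes (2 for Urod), of 41012 probes on the array. Of these, 21015 probes were tested, and the tested probes with a symbol stood for 8378 genes. A set of 5 names, Hbb, Hbb-b1, Hbe2, Ahsp and Alas2, belong to cells of the red-cell line, and the other enzymes work in nearly every cell.

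The arrays carried RNA of tubular or papillary mammary tumours from female Sprague-Dawley rats, taken at 180 days of age, 5 tumours per diet. Deficient rats came from dams on chow with 3 mg of zinc per kg, control rats from dams on adequate chow with 35 mg per kg, and supplemented rats from dams on chow with 180 mg per kg, with 16 dams per group. Dams ate the chow from gestation day 10 to weaning on day 21, and the daughters stayed on it until day 51. Rats of every diet, controls included, then received 50 mg/kg of the mammary carcinogen DMBA by gavage on day 51 and ate adequate chow afterwards, so every tumour arose after the carcinogen and was collected on adequate chow. The label negative control was taken to mean the adequate diet, and 1 free-text label that names mammary gland on day 21 was not followed, because the characteristics and the design text give tumours at 180 days. Whether tumours of 1 diet came from different animals or litters is not in the labels, and p-values therefore reflect the spread among these tumours alone.

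Haemoglobin is a tetramer of alpha-type and beta-type globin chains, each holding a haem group. Red-cell precursors make both in bulk, with Alas2 as the first enzyme of their haem pathway and Ahsp holding free alpha chains until they pair, and reticulocytes carry the remaining transcripts into the blood. Other cells make haem for mitochondrial and microsomal proteins from the Alas1 enzyme, and Urod, Cpox and Fech serve the pathway in both settings.

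The stretch of 120 bases directly before the annotated start site is shown for 5 genes, in which the globin promoters can be read beside those of a pair of widely expressed enzymes (RefSeq, assembly GRCr8). Hba-a3, an alpha globin gene, was added because its level followed that of Hbb-b1 most closely of all named genes. Capitals mark the CACCC box, the CCAAT box and the ATAAA core of a TATA box on either strand, 5′ to 3′ along the gene.
Hbb-b1, chr1:167643521-167643640, minus strand: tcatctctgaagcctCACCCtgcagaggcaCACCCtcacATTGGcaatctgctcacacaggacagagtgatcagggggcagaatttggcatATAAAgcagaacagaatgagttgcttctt
Hbb, chr1:167663722-167663841, minus strand: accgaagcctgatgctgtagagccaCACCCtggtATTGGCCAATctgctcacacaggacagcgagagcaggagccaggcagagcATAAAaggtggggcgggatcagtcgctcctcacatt
Hba-a3, chr10:15816944-15817063, minus strand: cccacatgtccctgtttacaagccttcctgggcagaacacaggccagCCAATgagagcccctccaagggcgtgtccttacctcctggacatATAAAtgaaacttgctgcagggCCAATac
Alas1, chr8:115768643-115768762, minus strand: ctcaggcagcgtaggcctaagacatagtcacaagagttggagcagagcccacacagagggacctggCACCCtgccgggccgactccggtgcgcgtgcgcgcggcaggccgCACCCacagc
Urod, chr5:135705381-135705500, minus strand: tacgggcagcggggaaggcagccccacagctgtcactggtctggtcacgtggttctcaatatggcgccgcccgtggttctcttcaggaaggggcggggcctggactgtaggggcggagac
ATTGG is CCAAT read on the other strand, so in Hbb the capitals ATTGGCCAAT are CCAAT matches on both strands that meet. Both beta globin stretches hold the CACCC, the CCAAT and the ATAAA motif, in that order towards the start site, and Hba-a3 holds the last 2. Over the table's whole window of 300 bases (250 before and 50 after the start), Alas1 had 3 matches to CACCC, Urod had 0 of the motifs searched, and Fech had 1 CACCC and 1 GATAA. The only match in the window of Alas2 was GATAA, the core of the GATA motif, 135 bases before the start. Such short motifs are common: of 33469 promoters of this length, 54.9% held CACCC, 37.5% CCAAT, 42.5% ATAAA and 26.5% GATAA, and 7.67% held the first 3 together. The table had an entry for 6 of the 9 genes. The matches describe letters and say nothing of a factor's binding.

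Expression was read as a level, the log2 processed signal of a probe minus the 75th percentile of its own array, so a level of 0 equals that percentile. The arrays differed in brightness, with a 75th percentile of 50.7 to 177 in deficient tumours, 55.9 to 171 in controls and 103 to 163 in supplemented tumours. The 3 dimmest were deficient replicates 1 and 4 and control replicate 2. The 15 arrays lay on 4 slides that each held all diets, and 0 spots were saturated. Array-to-array correlations were 0.910 to 0.980, with a mean of 0.951 both within and between diets. Mammary epithelial markers, which check the labelled tissue, were all measured (10 of 10 genes, with mean levels of 2.94 to 3.39 in deficient, 2.76 to 3.28 in control and 2.49 to 3.59 in supplemented tumours). Limma called 0 of 21015 probes (0%) between deficient tumours and controls (lowest adjusted p = 0.444), 0 (0%) between supplemented tumours and controls (lowest adjusted p = 1.000) and 0 (0%) between deficient and supplemented tumours (lowest adjusted p = 0.615). Probes with an unadjusted p under 0.05 numbered 822, 415 and 1481 in these comparisons, where 1051 are due by chance. None of the 9 genes passed in any of these comparisons.

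Globin transcripts had their highest mean in deficient tumours and their lowest in supplemented ones. Hbb-b1, a major adult beta globin gene, had levels of 8.20, 5.88, 5.71, 6.24 and 5.97 in deficient tumours, 5.01, 5.60, 3.50, 4.96 and 5.92 in controls and 4.43, 4.24, 4.80, 3.53 and 4.57 in supplemented tumours. Every deficient tumour lay above every supplemented one, deficient replicate 1 stood far above the rest, and controls overlapped both other diets. The means were 6.40 ± 1.03, 5.00 ± 0.93 and 4.31 ± 0.48 in deficient, control and supplemented tumours (SD, n = 5 each). Hbb-b1 was 2.09 higher in deficient than in supplemented tumours (95% interval 1.07 to 3.10), a 4.25-fold difference, and the difference within the 4 slides was 1.36 to 3.77. Here and below, differences within slides rest on single or few tumours per diet. The 3.77 sets deficient replicate 1 against supplemented replicate 1. Deficient tumours exceeded controls by 1.40 (0.39 to 2.42), and supplemented tumours differed from controls by -0.68 (-1.70 to 0.33). These intervals come from the fit across all probes and are not adjusted for their number.

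The separation of Hbb-b1 was also present before scaling. Its processed signals were 14902, 9034, 5751, 3946 and 11075 in deficient tumours and 2654, 3074, 2951, 1310.4 and 2448 in supplemented tumours, without overlap. Control signals were 5265, 2718, 1930, 5189 and 5442 and overlapped both. The unscaled signals of the other separated genes among the 9 did overlap, the lowest deficient signals being those of replicate 4, a dim array. There Hbb read 92.7, against 139 in supplemented replicate 1, Ahsp read 21.1, against 37.9 in supplemented replicate 2, and Alas2 read 13.1, against 16.4 in supplemented replicate 3. RNA of a whole tumour cannot tell fewer cells of a type from less RNA per cell, so a globin level here is an amount of transcript per tumour RNA.

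**Figure D1:**
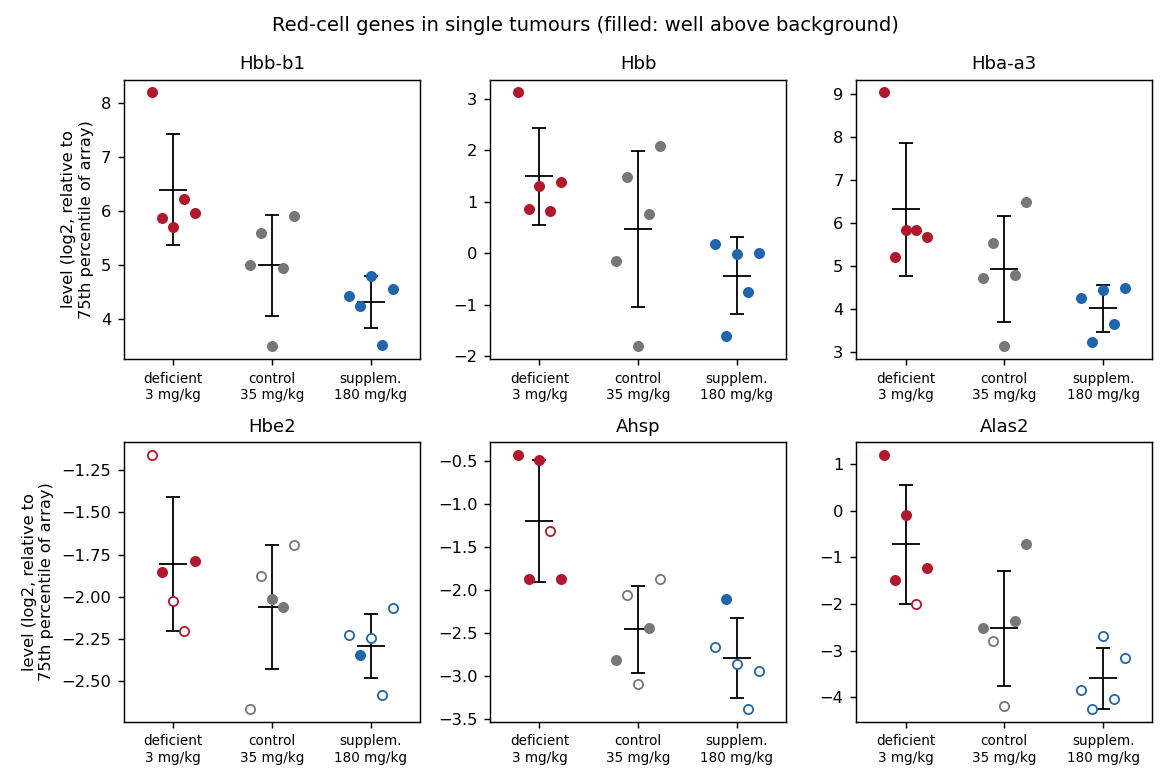
Level (log2, with the array's 75th percentile at 0) of Hbb-b1, Hbb, Hba-a3, Hbe2, Ahsp and Alas2 in each tumour, by diet; filled points were well above background, and black marks give the mean and SD (n = 5). Deficient replicate 1 is the highest point for Hbb-b1 at 8.20, and for Ahsp and Alas2 most open points lie in control and supplemented tumours.

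Hbb, the other adult beta globin, had levels of 3.12, 0.86, 1.30, 0.82 and 1.38 in deficient tumours, -0.16, 1.47, -1.81, 0.76 and 2.08 in controls and 0.17, -1.62, -0.02, -0.75 and 0.01 in supplemented tumours. Its lowest deficient tumour lay above its highest supplemented one, while controls spanned nearly the whole range. Deficient tumours were 1.94 higher than supplemented ones (0.61 to 3.27), a 3.83-fold difference, and 1.38 to 2.95 higher within slides. Against controls, deficient tumours differed by 1.03 (-0.30 to 2.36) and supplemented tumours by -0.91 (-2.24 to 0.42), both intervals including 0. Without control replicate 3 these differences were 0.46 and -1.48, without deficient replicate 1 the first was 0.62, and without control replicate 5 the second was -0.51. Within the slides the deficient minus control difference of Hbb ran from -0.61 to 3.28. The beta globin genes are near-identical copies, and how far each probe reads its neighbour was not tested.

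Hba-a3, the alpha globin measured here and not one of the 9 genes, was arranged in the same way. Its levels were 9.05, 5.21, 5.85, 5.84 and 5.67 in deficient tumours, 4.71, 5.54, 3.13, 4.80 and 6.49 in controls and 4.26, 3.24, 4.45, 3.66 and 4.48 in supplemented tumours. Deficient and supplemented tumours did not overlap, deficient replicate 1 was again the highest, and control replicate 5 exceeded 4 of the 5 deficient tumours. Before scaling they did not overlap either, the lowest deficient signal being 2992 and the highest supplemented one 2372. The difference between deficient and supplemented tumours was 2.30 (0.90 to 3.71), or 4.94-fold.

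Hbe2, an epsilon-type globin of the embryonic group, stayed near background. It was well above background on 2 arrays of deficient tumours, 2 of controls and 1 of supplemented tumours. Levels were -1.16, -1.86, -2.03, -2.21 and -1.79 in deficient tumours, -2.67, -1.88, -2.01, -2.06 and -1.69 in controls and -2.23, -2.34, -2.24, -2.58 and -2.06 in supplemented tumours. The 3 diets overlapped, and the highest value, in deficient replicate 1, was not well above background. The deficient minus supplemented difference was 0.49 (0.03 to 0.94), and 0.28 to 1.07 within slides.

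Ahsp, which binds free alpha globin and keeps it from precipitating, was well above background in 4 deficient, 2 control and 1 supplemented tumour. Its levels were -0.43, -1.87, -0.49, -1.31 and -1.87 in deficient tumours, -2.81, -2.05, -3.08, -2.44 and -1.87 in controls and -2.65, -2.10, -2.85, -3.38 and -2.94 in supplemented tumours. Deficient tumours did not overlap supplemented ones, with deficient replicates 1 and 3 the highest. However, 4 of the supplemented values and that of deficient replicate 4 were at background. The fitted difference was 1.59 (0.88 to 2.30), and 0.61 to 2.48 within slides, and it was 0.06 to 0.44 under other background corrections. Deficient tumours were 1.26 above controls (0.55 to 1.96), and supplemented tumours differed from controls by -0.34 (-1.04 to 0.37). Under other background corrections and in the deposited values, deficient tumours were 0.32 to 0.41 above controls.

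Alas2, the red-cell form of aminolevulinate synthase, was well above background in 4 deficient, 3 control and 0 supplemented tumours. Levels were 1.19, -1.48, -0.08, -2.00 and -1.22 in deficient tumours, -2.52, -2.80, -4.18, -2.37 and -0.72 in controls and -3.84, -4.25, -2.69, -4.03 and -3.16 in supplemented tumours. Supplemented values, all at background, lay below every deficient value, and control replicate 5 lay above 3 of the deficient tumours. Because supplemented tumours give only an upper limit, its difference on the processed signals is a bound, at least 2.81-fold higher in tumours of deficient rats. This bound sets the deficient mean against, per supplemented array, the higher of the probe's own signal and the lowest signal well above background. The deficient mean includes replicate 4, which was not well above background. Under other background corrections and in the deposited values the measured difference was 0.35 to 0.94. These values lie under the bound of 1.49 in log2 units, which therefore holds for the processed signals only. The measured means were -0.72 ± 1.28 in deficient, -2.52 ± 1.24 in control and -3.59 ± 0.65 in supplemented tumours (SD, n = 5 each), with a deficient minus control difference of 1.80 (0.50 to 3.09). In the same alternatives the deficient minus control difference of Alas2 was 0.57 to 0.67. Between supplemented tumours and controls the bound gives Alas2 no direction.

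Of the 9 genes, 4 (Hbb, Hbb-b1, Ahsp and Alas2) had every scaled level of deficient tumours above every one of supplemented tumours, while 0.642% of all tested probes did so. For Ahsp and Alas2, deficient replicate 4 was itself not well above background, as were most or all of the supplemented tumours. The separation of these genes therefore partly ranks values at background. Since the genes were picked with this contrast known, the count is not read against that share of all probes. Between deficient tumours and controls 0 of the 9 genes were separated (0.171% of all probes with deficient tumours above), and between supplemented tumours and controls 0 were (0.148% of all probes with supplemented tumours below).

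On the levels from the processed signals, the widely expressed enzymes differed between diet means by at most 0.41 in size, and the tumours of the diets overlapped for each. Alas1, the housekeeping form of the first enzyme, had levels of 3.33, 3.15, 3.60, 3.52 and 3.44 in deficient tumours, 3.16, 3.62, 3.79, 3.41 and 3.66 in controls and 3.48, 3.09, 3.40, 3.37 and 3.36 in supplemented tumours. All 3 diets overlapped within a range of 0.70 over the 15 arrays. The deficient minus supplemented difference was 0.07 (-0.26 to 0.40), the deficient minus control difference -0.12 (-0.45 to 0.21) and the supplemented minus control difference -0.19 (-0.52 to 0.14).

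Urod, uroporphyrinogen decarboxylase, was read by a brighter and a dimmer probe, both well above background on all 15 arrays. The brighter probe had levels of 4.70, 4.95, 4.79, 3.54 and 5.18 in deficient tumours, 5.09, 4.49, 5.24, 5.32 and 4.91 in controls and 5.20, 5.26, 5.08, 4.83 and 4.82 in supplemented tumours. The dimmer probe lay at 3.14 to 3.96 (median 3.69) in deficient, 3.76 to 4.31 (median 3.96) in control and 3.79 to 4.11 (median 4.06) in supplemented tumours. Diets overlapped for both probes, and the low value of the brighter probe in deficient replicate 4, a dim array, was not matched by the dimmer probe, which read 3.69 there. The deficient minus supplemented difference was -0.41 (-0.96 to 0.15) for the brighter and -0.37 (-0.72 to -0.01) for the dimmer probe. Against controls, deficient tumours differed by -0.38 (-0.93 to 0.18) and -0.39 (-0.75 to -0.04) on these probes, and supplemented tumours by 0.03 and -0.02. Without the 3 dimmest arrays the brighter probe's deficient minus supplemented difference was -0.07. Over all 29 alternative settings that difference ran from -0.66 to 0.01, both under other background corrections, and was below 0 in 28. In the authors' deposited values it was -0.50.

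Cpox, coproporphyrinogen oxidase, had levels of -0.40, -0.62, 0.11, -0.45 and -0.58 in deficient tumours, -0.33, -0.40, -1.04, -0.43 and -1.03 in controls and -0.68, -0.32, -0.23, -0.69 and -0.34 in supplemented tumours. Diets overlapped, with deficient replicate 3 the highest and control replicates 3 and 5 the lowest. The deficient minus supplemented difference was 0.06 (-0.36 to 0.48). Fech, ferrochelatase, which puts iron into the porphyrin ring, read -1.08, -0.57, -0.16, -0.62 and -0.40 in deficient tumours, -0.53, -0.49, -0.60, -0.59 and -0.75 in controls and -0.21, -0.61, -1.01, -0.62 and -0.52 in supplemented tumours. The diet means of Fech were -0.57 ± 0.34, -0.60 ± 0.10 and -0.59 ± 0.29 in deficient, control and supplemented tumours (SD, n = 5 each), and the tumours of the 3 diets overlapped. Deficient replicate 1, the highest tumour for the globins, was the lowest for Fech at -1.08.

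**Figure D2:**
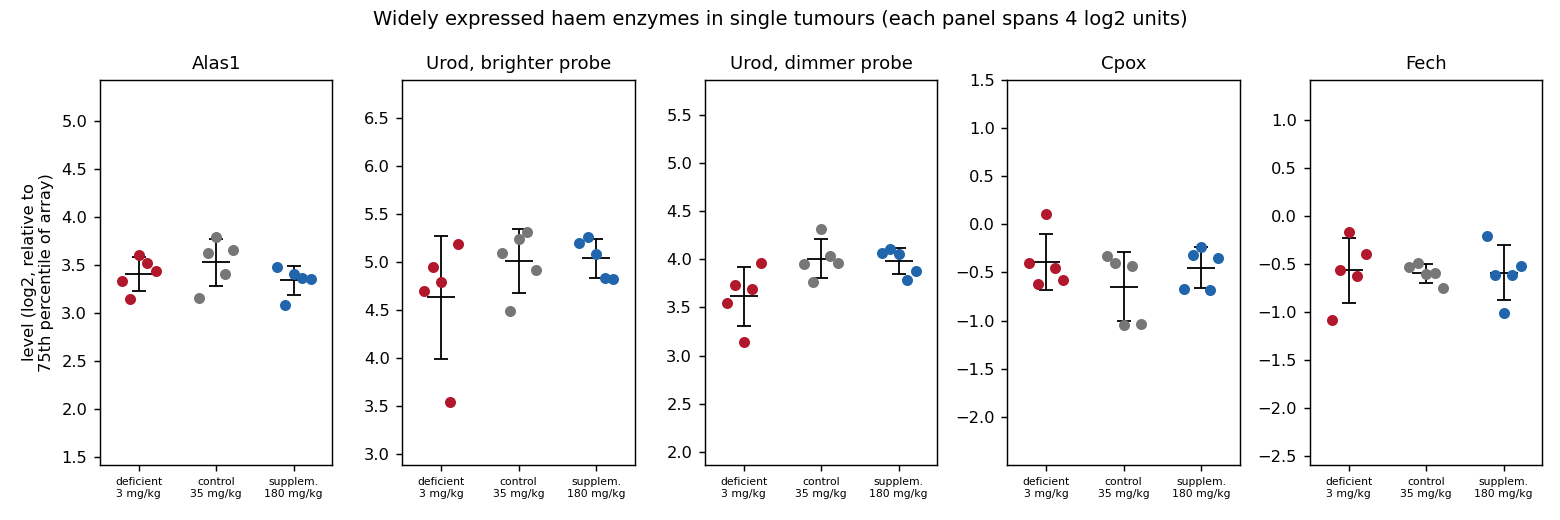
Level (log2, with the array's 75th percentile at 0) of Alas1, both Urod probes, Cpox and Fech in each tumour, by diet; every panel spans 4 log2 units, and black marks give the mean and SD (n = 5). The diets overlap in each panel, and the brighter Urod probe has 1 low deficient tumour at 3.54.

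Set side by side, the 5 red-cell genes had a median difference of 1.94 between deficient and supplemented tumours and the 4 enzymes one of 0.04, beside 0.00 over all tested probes. With Alas2 at its bound the red-cell median was 1.59. That is the measured difference of Ahsp, which was also mostly at background in supplemented tumours and was given no bound. Alas2, Ahsp and Hbe2 enter these medians as tested probes, which they would not be without the deficient tumours. Deficient minus control gave 1.26 for the red-cell genes and -0.04 for the enzymes. Supplemented minus control gave -0.68 and 0.02. All 5 red-cell genes were higher in deficient tumours than in supplemented tumours and in controls, except Hbe2 against supplemented tumours with normexp on all spots (-0.22). Hbb, Hbb-b1, Hbe2 and Ahsp were lower in supplemented tumours than in controls, but with normexp on all spots Hbe2 and Ahsp were higher, by 0.39 and 0.35. Of the 4 enzymes, 3 were higher in deficient than in supplemented tumours, where 50.1% of all probes were. Against controls, 2 of the 4 enzymes were higher in deficient tumours (49.3% of all probes) and 3 in supplemented tumours (48.8% of all probes). Scaling by the array median in place of the 75th percentile moved the median of all probes by -0.21 for deficient minus supplemented, and with it the medians were 1.73 for the red-cell genes and -0.17 for the enzymes, 0 of which were then higher. These comparisons share tumours, as each diet enters a pair of them, so they are not independent of each other.

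**Figure D3:**
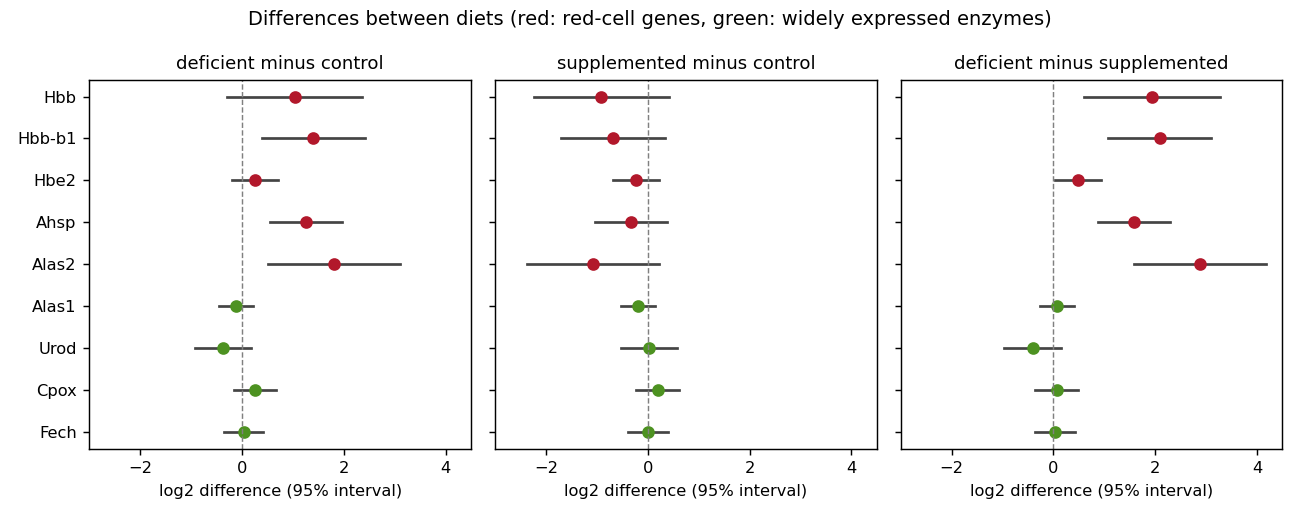
Fitted log2 difference of each gene (points) with its 95% interval (lines) for deficient minus control, supplemented minus control and deficient minus supplemented tumours; red points are red-cell genes and green points widely expressed enzymes. Between deficient and supplemented tumours Hbb and Hbb-b1 lie at 1.94 and 2.09 and the enzymes at -0.41 to 0.07. The point of Alas2 is its measured value, for which the processed signals give only a bound of at least 1.49.

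The order of the diets was kept by the bright globin genes under the processing alternatives, and the sizes of the dim genes were not. For deficient minus supplemented, Hbb-b1 ran from 1.54 to 2.44, Hba-a3 from 1.56 to 2.60 and Hbb from 1.12 to 2.11 over 29 settings. Ahsp was 1.59 from the processed signals but 0.44 with normexp background correction that left out spots dimmer than their background and 0.38 in the authors' deposited log2 values. Alas2, with its bound of at least 1.49 from the processed signals, was measured at 0.94 and 0.82 in the same alternatives. Hbe2 was 0.49, against 0.22 and 0.08. Normexp with all spots kept gave 0.06 for Ahsp, 0.35 for Alas2 and -0.22 for Hbe2, a change of sign for the last. Hbb-b1, far above background, read 2.09, 1.80 and 1.93. Normexp on all spots also moved the bright enzymes Alas1 and Urod. For deficient minus supplemented, Alas1 went from 0.07 to 0.49 and Urod from -0.41 to 0.01. Cpox went from 0.06 to -0.07 and Fech from 0.03 to -0.03. For supplemented minus control, Alas1 went from -0.19 to -0.70 and Urod from 0.03 to -0.69. Cpox there went from 0.20 to 0.22 and Fech from 0.00 to 0.13.

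**Figure D4:**
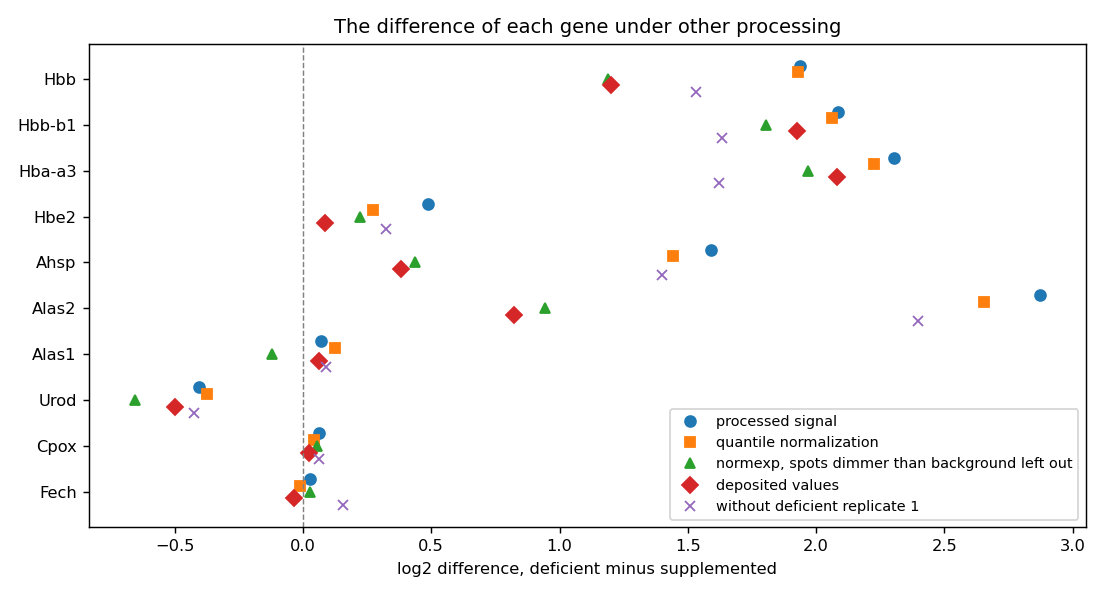
Log2 difference, deficient minus supplemented, of the 9 genes and Hba-a3 from the processed signal and under 4 alternatives, each a symbol. Hbb-b1 lies between 1.64 and 2.09 in these settings, whereas Alas2, at background in supplemented tumours, ranges down to 0.82.

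Variation between tumours of the same diet was examined as well, since it does not use the differences between diets. The filter for tested probes is not free of them. Alas2, Ahsp and Hbe2 would not have passed it without the deficient tumours, in which their mean levels were highest. Deviations from the diet mean of each other gene were correlated with those of Hbb-b1 over the 15 tumours, with a permutation test within diets (100000 resamples, two-sided) adjusted over these 8 relations. Hbb followed Hbb-b1 with r = 0.86 (permutation p = 0.00200, adjusted p = 0.0160) and rho = 0.82 (p = 0.00218, adjusted p = 0.0174). Alas2 did so with r = 0.78 (permutation p = 0.00545, adjusted p = 0.0218) and rho = 0.70 (p = 0.00746, adjusted p = 0.0298). Ahsp had r = 0.63 (permutation p = 0.0162, adjusted p = 0.0431), and its rho of 0.55 missed the threshold (p = 0.0386, adjusted p = 0.0771). Hbe2 missed it on both measures, with r = 0.62 (permutation p = 0.0470, adjusted p = 0.0843) and rho = 0.65 (p = 0.0210, adjusted p = 0.0560).

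Part of these relations rested on single tumours, and those of Alas2, Ahsp and Hbe2 include tumours at background. Leaving out deficient replicate 1 and control replicate 3, the tumours farthest from the median of Hbb-b1, gave r = 0.73 for Hbb, 0.56 for Alas2, 0.43 for Ahsp and 0.60 for Hbe2. These values, and those of the enzymes without the same tumours, keep the diet means of all 15 tumours. They therefore do not remove the full influence of the tumours left out. With the slide means also removed, r was 0.83, 0.75, 0.67 and 0.55, and with array brightness removed it was 0.78, 0.77, 0.46 and 0.54. The count of 3 genes past the threshold was 0 without deficient replicate 1, 0 without control replicate 5 and 0 without the 3 dimmest arrays. The arrays share the scaling by their own 75th percentile, and its part in these relations was not tested beyond the value with brightness removed.

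The enzymes had no relation to Hbb-b1 that passed the test on these levels. With brightness removed, Urod passed it (r = 0.67, permutation adjusted p = 0.0346). Fech had r = -0.55 (permutation p = 0.0527, adjusted p = 0.0843), but rho = -0.27 (p = 0.364, adjusted p = 0.456), and its r was -0.41 without the 2 farthest tumours and -0.60 with slide removed. Without deficient replicate 1 alone the r of Fech was -0.20. Within single diets it was -0.91 in deficient, -0.19 in control and -0.22 in supplemented tumours. Alas1 had r = -0.17 (permutation p = 0.581, adjusted p = 0.638) and rho = -0.13 (p = 0.680, adjusted p = 0.680). Cpox had r = 0.17 (permutation p = 0.638, adjusted p = 0.638) and rho = 0.26 (p = 0.399, adjusted p = 0.456). Urod had r = -0.19 (permutation p = 0.523, adjusted p = 0.638) and rho = -0.42 (p = 0.150, adjusted p = 0.240). Without the 2 farthest tumours r was 0.18 for Alas1, -0.03 for Cpox and -0.24 for Urod. The sign of Urod turned with brightness, being -0.64 with slide removed and 0.67 with brightness removed, and Alas1 and Cpox also changed sign between settings. Among pairs of red-cell genes r ran from 0.44 to 0.86 (10 pairs, median 0.62), among pairs of a red-cell gene and an enzyme from -0.55 to 0.41 (20 pairs, median -0.07), and among pairs of enzymes from -0.27 to 0.18 (6 pairs, median 0.03). These pair values are descriptions over the same 15 tumours.

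**Figure D5:**
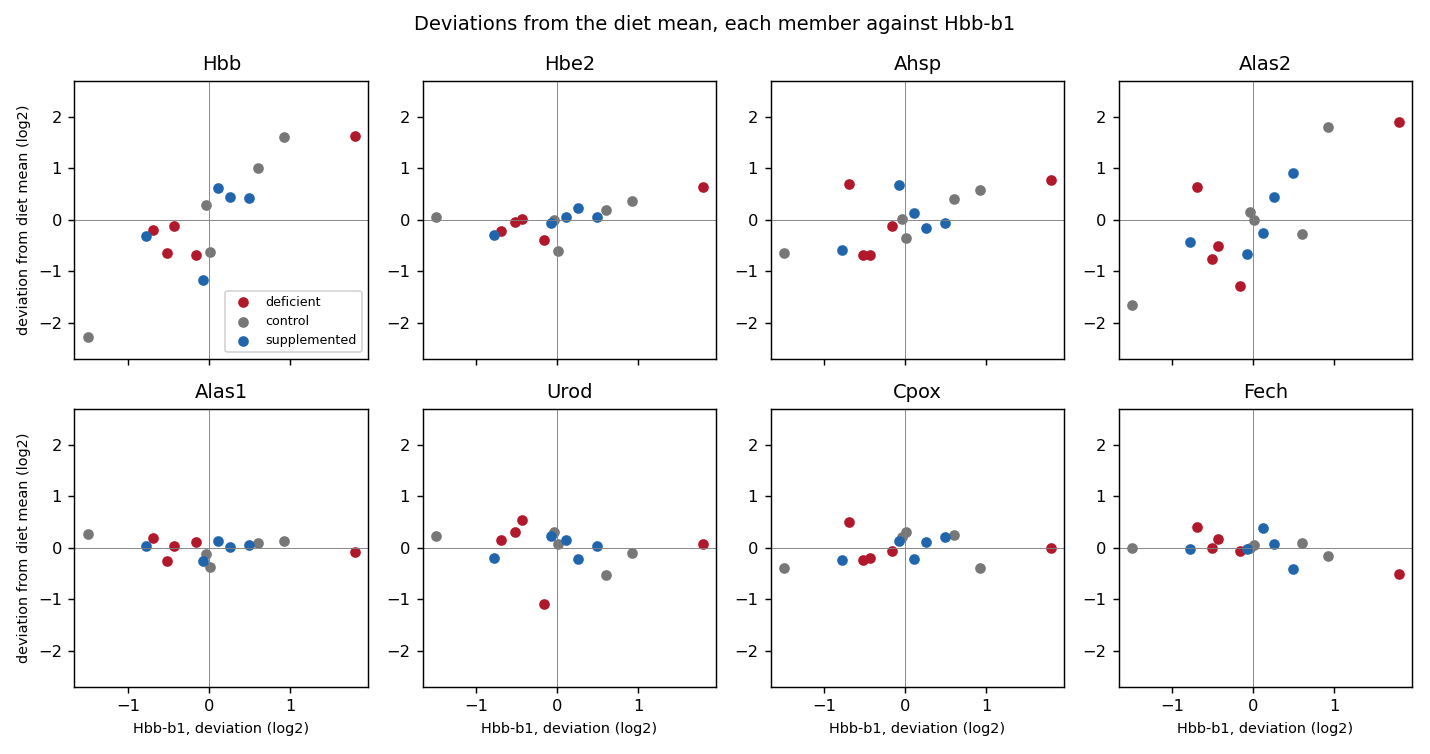
Deviation from the diet mean (log2) of each gene against that of Hbb-b1 in the 15 tumours, coloured by diet. Hbb follows Hbb-b1 (r = 0.86), and deficient replicate 1 is the point farthest to the right. Fech slopes the other way (r = -0.55, not past the threshold, and -0.20 without deficient replicate 1).

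Hba-a3 came closest to Hbb-b1 of all 8365 other genes, with r = 0.94 of the deviations from diet means over the 15 tumours. The next were Gjd4 (0.92), Art1 (0.88), Cyp4f6 (0.88), Or52e15c (0.88), Serpinb7 (0.87), Spcs3 (0.87) and Utp14a (0.86). Hbb came at rank 10, Alas2 at 37, Ahsp at 248 and Hbe2 at 260. In these 7 genes deficient minus supplemented was 0.26 for Gjd4, 0.32 for Art1, 0.09 for Cyp4f6, 0.53 for Or52e15c, 0.27 for Serpinb7, 0.07 for Spcs3 and 0.26 for Utp14a. They are given as likeness of pattern only, with no test.

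Many other genes of red cells were too dim to read, more so among the transcription and maturation genes than among those of membrane and cytoplasm. Of 28 red-cell membrane and cytoplasm genes, 22 were on the array under these names and 12 were measured. Among those 12, 10 were higher and 2 lower in deficient than in supplemented tumours, with a median of 0.13 and 0 called. Car1, the red-cell carbonic anhydrase, differed by 0.49, Gypc, glycophorin C, by 0.44 and Bsg, which many cells express, by -0.21. The defining membrane genes Slc4a1 (band 3), Epb42, Rhag and Rhd were not well above background on any of the 15 arrays, nor were Pklr and Tent5c. Of 17 erythroid transcription and maturation genes 4 were measured, 2 higher and 2 lower, with a median of 0.00 and 0 called. Gata1 and Nfe2, transcription factors of the red-cell line, and Tfr2 were not well above background on any array. Ldb1 differed by 0.40 and Bach1, a repressor that senses haem, by 0.29, while the 2 tested probes of Tal1 disagreed, at -1.26 and 0.29.

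The remaining haem and iron genes lay on both sides of 0. Of 8 measured genes of haem synthesis and transport outside the 9, 2 were higher and 6 lower in deficient than in supplemented tumours, with a median of -0.13 and 0 called, from -0.27 for the mitochondrial carrier Slc25a39 to 0.11 for the haem transporter Slc48a1 and 0.19 for the porphyrin transporter Abcb6. Of 17 measured genes of haem breakdown and iron handling 7 were higher and 10 lower, with a median of -0.02 and 0 called. Tf, transferrin, differed by 0.83, Hamp, hepcidin, by 0.29 and Blvra, biliverdin reductase A, by -0.91. Among the other 4 measured globins, 2 were higher and 2 lower: besides Hba-a3, Cygb (cytoglobin, found in fibroblasts) differed by 0.45 and Ngb (neuroglobin) by -0.02, and Hbz and Hbe1 were not well above background on any array.

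Few markers of other blood cells were measured, and none was called. Of 11 platelet genes 4 were measured, all higher in deficient than in supplemented tumours, with a median of 0.63 and 0 called. Pf4, platelet factor 4, differed by 0.82, Gp1bb by 0.69 and Treml1 by 0.39. Without deficient replicate 1, the tumour with the highest globins, the platelet median was 0.20, Pf4 differed by 0.26, Gp1bb by 0.12 and Treml1 by 0.14. The mean platelet level ran from -1.25 to 0.83 in deficient, -1.38 to -0.52 in control and -1.55 to -0.77 in supplemented tumours, so the diets overlapped. Of 12 neutrophil genes only S100a9 and S100a8 were measured, higher in deficient tumours by 1.48 and 0.86, with 0 called, and their mean level ran from -1.85 to 1.17 in deficient, -2.13 to -0.56 in control and -2.55 to 0.38 in supplemented tumours. With single deficient or supplemented arrays left out, the neutrophil median difference, 1.17 over all arrays, ran from 0.81 to 1.63. S100a9 ran from 1.11 to 2.00 and S100a8 from 0.51 to 1.26. Of the neutrophil list 7 genes were not well above background on any array. The part of these cells in the globin values was not tested.

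Lists of tissue cells and of the hypoxia response gave medians nearer 0 for the same contrast. Endothelial genes had 3 higher and 3 lower of 6 measured (median 0.13), with Cdh5 at 0.59, Flt1 at 0.44 and Eng at -0.04. Macrophage genes had 5 higher and 4 lower of 9 measured (median 0.00), with Cd14 at 0.58, Csf1r at 0.50 and Adgre1 at -0.17. Mammary epithelial genes had 6 higher and 4 lower of 10 (median 0.05), with the milk gene Wap at 0.61, its regulator Elf5 at 0.57 and the casein Csn2 at -0.73. Hypoxia genes had 4 higher and 6 lower of 10 measured (median -0.16), with Adm at 0.44, Vegfa at 0.42 and Pgk1 at -0.63. None of these genes was called. Scaling by the array median shifts each of these differences by the -0.21 given above. That exceeds in size the medians of the endothelial, macrophage, epithelial and hypoxia lists. It also exceeds those of the red-cell membrane, erythroid transcription, haem synthesis and iron lists.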

How the data were processed

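Each array's deposited file holds spot intensity on a linear scale. Agilent's Feature Extraction had subtracted background and a spatial trend; its version is 11.5.1.1 in the file headers and 15.5 in the submitters' processing notes. A table of log2 values that the authors deposited holds 30002 probes with array medians of 7.09 to 7.10; it tracked the log2 median spot signal of its own array with correlations across probes of 0.984 to 0.999, so it is not centred by gene, but its normalization is not given in the sources used here. It was used as an alternative.

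A level is the log2 processed signal less the array's own 75th percentile over non-control spots. Spots marked as outliers were left out (40 missing values), spots of a probe were averaged, and the 21015 probes well above background on at least 5 arrays were tested. Symbols came from a RefSeq table (assembly GRCr8) by accession without version, which named 17493 probes (42.7%). A gene with several probes is shown by the brightest. The array was designed on another build, and no probe coordinates are given.

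The diets were compared in 1 model with limma 3.58.1 in R 4.3.3 (two-sided tests with 12 residual degrees of freedom, adjusted by Benjamini-Hochberg over all tested probes, threshold 0.05). The median half-width of a 95% interval was 0.51, and precision is limited by the number of arrays. The scripts were tested on simulated data. The members and gene lists were chosen with earlier results of these data known. Named besides the 9 genes are the 8 nearest to Hbb-b1 and, per list, the 2 largest and the smallest deficient minus supplemented differences. Genes not well above background are named where they define a list. Alternatives covered background correction (normexp with an offset of 50, on median spot signals), the deposited values, scaling, filters, slide, scan day, replicate number, brightness, and leaving out arrays. A normexp fit without spots dimmer than their local background, and leaving out single arrays for platelet and neutrophil genes, were added after the data were seen.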

Additional observations from a re-analysis of the deposited data

Results flagged for a closer look

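Deficient replicate 1 stood apart from the other 4 deficient tumours for the bright globin genes. Its level was 8.20 for Hbb-b1, where the others lay between 5.71 and 6.24, 3.12 for Hbb, where they lay between 0.82 and 1.38, and 9.05 for Hba-a3, where they lay between 5.21 and 5.85. In each case its gap to the nearest tumour exceeded the 95% limit of Dixon's test, and 3 of 30 such tests did so. Chance gives about 1 in 20 in independent tests. All 3 flags fall on 1 array and on globin genes that vary together, so the count cannot be set against that rate. The same array was the dimmest of the 15, with a 75th percentile of 50.7. Without it the deficient minus supplemented difference was 1.64 for Hbb-b1, 1.53 for Hbb and 1.62 for Hba-a3. The part of brightness in its values was not tested.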

How the results depend on the processing

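The median of the red-cell genes was higher in deficient than in supplemented tumours and in controls under all 29 alternatives run for each, while its size moved with the background correction. Red-cell minus enzyme medians for deficient minus control were 0.64 with normexp, 0.64 with normexp without dim spots and 0.55 with the deposited values, against 1.30 from the processed signals. For deficient minus supplemented, the red-cell median was 0.35, 0.94 and 0.82 and the red-cell minus enzyme median 0.36, 0.99 and 0.83 in those settings, against 1.94 and 1.89; leaving out single arrays gave 1.46 (without deficient replicate 1) to 2.07. For supplemented minus control, normexp gave 0.32 for the red-cell, -0.28 for the enzyme and 0.60 for the red-cell minus enzyme median, and the deposited values gave -0.25 for the last, against -0.68, 0.02 and -0.70; the red-cell median was -1.06 without control replicate 3 and -0.45 without control replicate 5. The planned normexp fit was shifted in 4 supplemented arrays, where 5 to 20 spots were dimmer than their local background against 0 to 2 elsewhere. Scaling by the array median moved the median of all probes by -0.21 for deficient minus supplemented and by 0.12 for supplemented minus control. Limma's calls were 0 in every alternative except 1 without supplemented replicate 1, where Capns2, a small calpain subunit gene outside the 9 and named after its value was seen, was 4.46 higher in deficient than in supplemented tumours (adjusted p = 0.0263).

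Of the 3 genes correlated with Hbb-b1, the count was 0 with normexp, 1 with normexp without dim spots, 1 with the deposited values, 1 with quantile normalization and 0 without the 3 dimmest arrays, and 0 (without deficient replicate 1 or control replicate 5) to 4 with single arrays left out. With the replicate number as a block it was 5, with Hbe2 and Fech added (Fech r = -0.67, permutation adjusted p = 0.0264). There Alas1 had r = 0.0939, and the red-cell median for deficient minus supplemented was 1.94. The block changed no other call than those of Hbe2 and Fech. Same-numbered tumours of different diets (15 pairs) had correlations of deviations of -0.28 to 0.22, with 6 above 0.1. Such values cannot settle whether the numbers pair the tumours. Correlations reversed with normexp for Hbe2 (-0.29), Ahsp (-0.064), Alas1 (0.40), Urod (0.45) and Cpox (-0.26), with normexp without dim spots for Urod (0.12), with the deposited values for Hbe2 (-0.37), Alas1 (0.050), Urod (0.027) and Cpox (-0.29), with slide or scan day as a block for Alas1 (0.33 and 0.069) and with brightness for Urod (0.67). With single arrays left out Alas1 ran from -0.29 to 0.11 and Cpox from -0.10 to 0.39. The cause of these changes was not tested. Slide as a random block and the filters were not run for the correlations. Dimness limits Hbe2, Ahsp and Alas2, well above background on 5, 7 and 7 arrays.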
